A study of Mus musculus with 112 samples.

Results

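Chrna2, Chrm2 and Adra1b are receptor genes of cholinergic and adrenergic signalling. Their expression was followed in the hearts of mice on caloric restriction (CR) and of mice on a control diet. The set was chosen by name and comprised 5 cholinergic and adrenergic receptor genes. Of these, 3 had a probe set that carried their symbol and no other, 1 probe set each, out of 19938 genes measured. The other 2 genes, both adrenergic receptors, had no such probe set and were not analysed here. Male mice of 7 strains were compared, with 8 mice per strain and diet and 1 Affymetrix Mouse Gene 1.0 ST array per heart. All values are log2 signals after RMA (robust multi-array average) normalization, so a difference of 1 is a doubling of signal.

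The CR groups and the control groups were 129S1/SvImJ, Balbc/J, C3H/HeJ, C57BL6/J, CBA/J, DBA/2J and B6C3F1/J, the last being the first-generation cross of C57BL6/J with C3H/HeJ. All mice were housed singly, bought at 6 weeks of age, given 84 kcal of a purified diet per week, split into CR and control at 8 weeks of age, and fasted overnight before hearts were taken at 22 weeks of age. Rations on CR were cut again partway through for 129S1/SvImJ and C57BL6/J. Each Balbc/J group was given more food than the groups of the other strains on the same diet. The CR ration of Balbc/J equalled the control ration of the other strains. The paper reports Balbc/J as the only strain whose body weight was not significantly reduced by CR. The amount of restriction therefore differed between strains. One CR heart (DBA/2J, replicate 7) was left out, so 55 CR hearts and 56 control hearts were used.

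Acetylcholine from the vagus nerve slows the heart, mainly through the M2 muscarinic receptor encoded by Chrm2, which acts through inhibitory G proteins, lowers cyclic AMP and opens G protein-gated potassium channels, most of all in atria and nodes. Noradrenaline from sympathetic nerves and adrenaline from the adrenal gland act on beta receptors, which raise cyclic AMP, and on alpha-1 receptors such as that encoded by Adra1b, which couple to Gq and phospholipase C. Chrna2 encodes the alpha-2 subunit of nicotinic acetylcholine receptors, ligand-gated cation channels best known from neurons.

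The array left out correlated with the mean of the rest of its group at r = 0.26, and its log2 signals were 5.71 for Chrna2, 5.73 for Chrm2 and 6.64 for Adra1b. Among the arrays used this correlation had a median of 0.993 and a lowest value of 0.894 (CBA/J control replicate 1), and 7 arrays stood apart from their group by Dixon's test. Markers of cardiomyocytes were bright, with all 5 measured and a mean log2 signal of 11.5 to 12.9 per array in CR hearts and 10.7 to 12.9 in control hearts. Markers of atrial cardiomyocytes, all 7 measured, spanned a wide range from heart to heart. Their mean had a lowest, median and highest value of 6.26, 6.80 and 11.41 in CR hearts and 6.25, 6.77 and 11.30 in control hearts. In C57BL6/J their mean was 7.75 in CR hearts and differed from that of control hearts by -2.25, and in B6C3F1/J it was 8.81 in CR hearts and 7.53 in control hearts. Atrial marker signal thus differed between mice and, in these strains, between diets. Across strains, 1 of 6 white adipocyte, 4 of 6 endothelial and 0 of 7 atrial markers were lower in CR hearts past the test, and 2 of 6 macrophage markers and 1 each of the ventricular, cardiomyocyte and smooth muscle markers were higher. Of brown adipocyte, skeletal muscle, fibroblast, lymphocyte and erythroid markers, 0 passed. Over all genes tested, 4.34% were called lower and 7.69% higher in CR hearts, and no marker list was tested as a set. In whole-heart RNA, fewer cells of a type and less RNA per cell cannot be told apart. The arrays give no detection call. As a guide only, 1035 probe sets of olfactory receptor genes, which are not expected in heart, had mean log2 signals with a 5th percentile of 2.08, a median of 3.31 and a 95th percentile of 4.77.

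Chrna2 was lower in the CR hearts of every strain. Across strains it fell by 0.41 on the log2 scale (SE 0.05, 95% interval -0.50 to -0.31). Its adjusted p was 2.04e-10 (limma, Benjamini-Hochberg over all genes, 55 CR and 56 control hearts). By p it ranked 39 among the 19938 genes, and 13 among genes lower in CR. Of all genes tested, 4.34% were called lower and 7.69% higher in CR hearts across strains. The study had singled out Chrna2 as a CR-responsive gene of heart in these same hearts, so its fall here is not independent evidence. The paper also measured Chrna2 by qPCR in C57BL6/J mice. It describes the CR effects on its qPCR markers as highly consistent over biological and technical replicates. Those qPCR values were not used here. Its signal was low on this array: the group means lay between 4.54 and 4.94 in CR hearts and between 4.96 and 5.34 in control hearts, and its mean over all hearts exceeded that of 96.6% of the olfactory receptor probe sets. The CR means of 129S1/SvImJ (4.54), C57BL6/J (4.67), B6C3F1/J (4.72) and C3H/HeJ (4.76) lay below the 95th percentile of those probe sets, so no fold is given for Chrna2, within or across strains. RMA compresses differences at low signal.

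**Figure D1:**
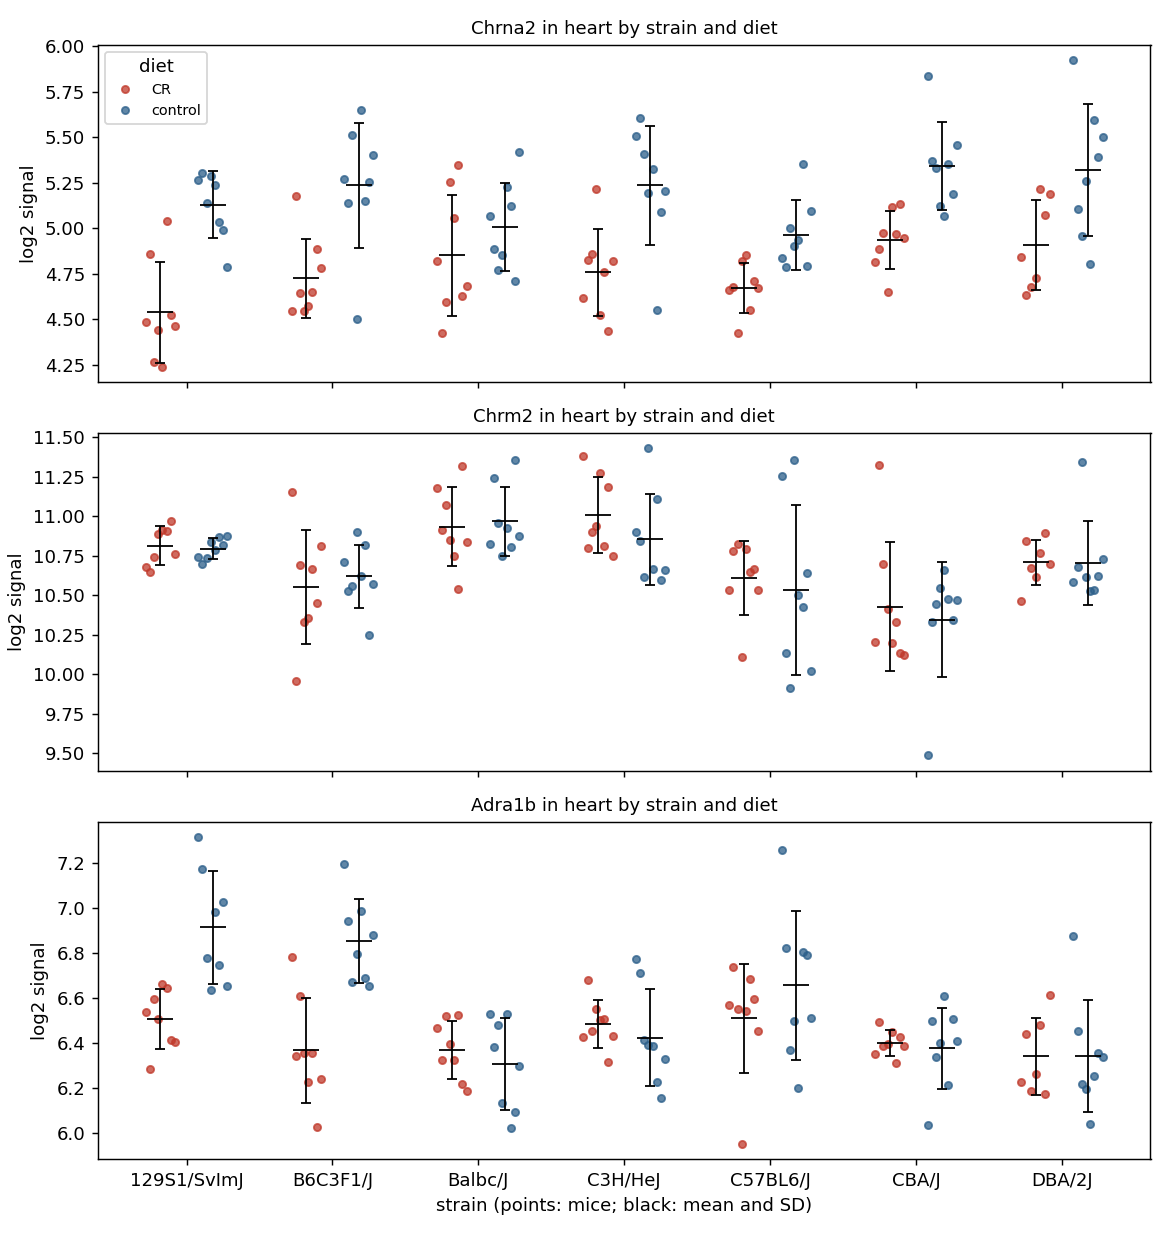
Log2 signal (vertical axes) of Chrna2, Chrm2 and Adra1b in each heart, by strain (horizontal axis), with CR hearts in red on the left and control hearts in blue on the right of each strain. Points are mice and black marks give the mean and SD (n = 8 per group, 7 in DBA/2J CR). Chrna2 sits lower in CR hearts in each strain, no Chrm2 difference between diets passed the test, and Adra1b stands high in the control hearts of 129S1/SvImJ and B6C3F1/J.

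Chrna2 passed the test within a strain in 129S1/SvImJ. Its lowest, median and highest log2 signals there were 4.24, 4.47 and 5.04 in CR hearts, against 4.79, 5.19 and 5.305 in control hearts. All 8 CR hearts lay below the control median and 6 lay below the lowest control heart, although the ranges overlapped. This difference of -0.59 (SE 0.11) passed (adjusted p = 0.00171, limma on the 16 arrays), where 6.83% of genes were called in either direction. In B6C3F1/J the 3 signals were 4.55, 4.64 and 5.18 in CR hearts, against 4.50, 5.26 and 5.65 in control hearts. Control replicate 4, at 4.50, was lower than every CR heart, while the other control hearts ran from 5.14 to 5.65 and overlapped only the highest CR heart, replicate 2 at 5.18. With that heart the difference was -0.51 (SE 0.14, limma adjusted p = 0.0718), and without it -0.62 (limma adjusted p = 0.00870). It also passed without CR replicate 2 (adjusted p = 0.0498) or without control replicate 7 (adjusted p = 0.0414). In this strain 0.908% of genes were called with every heart in the fit.

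Chrna2 in C3H/HeJ had a lowest, median and highest signal of 4.44, 4.79 and 5.22 in CR hearts, against 4.55, 5.27 and 5.61 in control hearts. In CBA/J the corresponding signals were 4.65, 4.96 and 5.13 in CR hearts, against 5.07, 5.34 and 5.84 in control hearts. All CR hearts of both strains lay below the control median, and 6 of the 8 CBA/J CR hearts lay below every control heart of that strain. C57BL6/J, the strain with the lowest control level, had 4.43, 4.67 and 4.86 in CR hearts, against 4.79, 4.92 and 5.35 in control hearts. DBA/2J had 4.63, 4.84 and 5.22 in CR hearts (n = 7), against 4.81, 5.33 and 5.92 in control hearts. In these strains too, every CR heart lay under the control median. Balbc/J was the exception, with 4.42, 4.75 and 5.35 in CR hearts, against 4.71, 4.98 and 5.42 in control hearts, and 5 of 8 CR hearts under the control median. In all, 52 of 55 CR hearts lay below the median of their own strain's control hearts.

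Within these strains the Chrna2 differences were -0.48 in C3H/HeJ, -0.40 in CBA/J, -0.29 in C57BL6/J, -0.41 in DBA/2J and -0.16 in Balbc/J, and none passed the limma test within the strain (adjusted p = 0.295, 0.358, 0.186, 0.839 and 0.871 in that order). In C3H/HeJ it passed without control replicate 6, an array that stood apart (-0.58, adjusted p = 0.0274), and with both marker means (atrial, white adipocyte) as covariates (-0.41, adjusted p = 0.0461), and in C57BL6/J it passed with array weights (-0.30, adjusted p = 0.0380). Few genes passed in the main fits: 0.0552% in C3H/HeJ, 0.015% in CBA/J, 0.251% in C57BL6/J and 0.01% in DBA/2J. More passed under those other settings. In C3H/HeJ there were 30 without the arrays that stood apart and 69 with both marker means, against 11. In C57BL6/J array weights gave 2355 genes, against 50. In Balbc/J 0% of genes passed by limma, although 1301 genes had an unadjusted p under 0.05. The smaller fall in Balbc/J was not shown to differ from that of the other strains, since the strain by diet interaction of Chrna2 had an adjusted p of 0.602 (moderated F test, limma) and the differences between strain effects, taken over 21 pairs, reached a lowest adjusted p of 0.405.

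**Figure D2:**
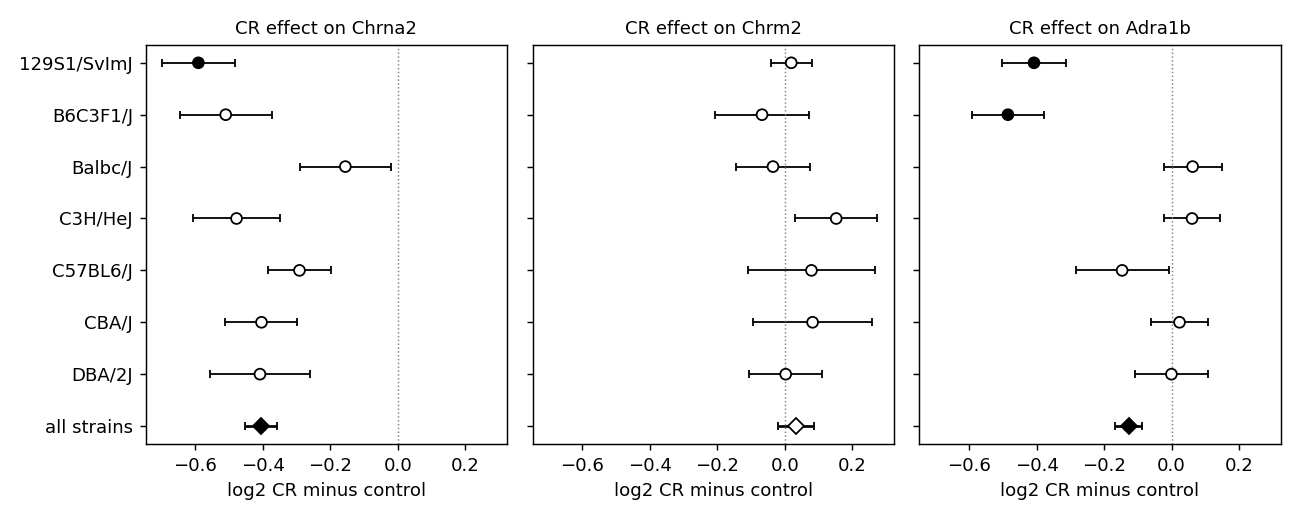
Difference in log2 signal, CR minus control (horizontal axes), of the receptor genes in each strain and over all strains (diamonds), with bars of 1 SE. Filled symbols passed an adjusted p of 0.05 in limma. All 7 strain differences of Chrna2 are negative, those of Chrm2 lie between -0.07 and 0.15, and for Adra1b the symbols of 129S1/SvImJ, B6C3F1/J and all strains are filled.

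The level of Chrna2 also depended on strain in control hearts (adjusted p = 0.0354, moderated F test, limma), where 60.7% of all genes differed between strains. From high to low, the control means were 5.34 ± 0.24 in CBA/J, 5.32 ± 0.36 in DBA/2J, 5.24 ± 0.32 in C3H/HeJ, 5.23 ± 0.35 in B6C3F1/J, 5.13 ± 0.18 in 129S1/SvImJ, 5.01 ± 0.24 in Balbc/J and 4.96 ± 0.19 in C57BL6/J (SD, n = 8). No neighbours in this order passed the test of pairs. Only CBA/J over C57BL6/J (0.38, adjusted p = 0.0276 over genes and pairs, limma) and DBA/2J over C57BL6/J (0.35, adjusted p = 0.0408) passed among the 21 pairs, and over all genes 17.9% of pairs did. The call was lost without Balbc/J control replicate 7 (adjusted p = 0.0596) or without CBA/J control replicate 1 (adjusted p = 0.0649). Among CR hearts the strain test of Chrna2 gave an adjusted p of 0.0592 (limma), with 59.6% of all genes called.

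Chrna2 varied with atrial marker signal. Within groups it was lower where the atrial marker mean was higher, with a slope of -0.12 log2 units per log2 unit (SE 0.03, adjusted p = 0.00246, limma) in a fit that also held the mean of white adipocyte markers, and 9.6% of genes had a called slope there. With the atrial marker mean alone the slope was -0.06 (adjusted p = 0.000261, limma). In the joint fit the slope on the white adipocyte markers, 6 of 7 measured, was 0.13 (adjusted p = 0.0777, limma), with 18.2% of genes called. With both marker means in the fit the fall of Chrna2 across strains was -0.39 (adjusted p = 1.90e-11, limma), close to the value without them, whereas within 129S1/SvImJ it was -0.45 and no longer passed (adjusted p = 0.0739). Markers of autonomic neurons, 7 of 8 measured, had array means of 4.67 to 5.44 in CR hearts and 4.70 to 5.63 in control hearts, and 0 of them passed the test across strains in either direction. For Schwann cells, 3 of 5 markers were measured and their array means ran from 5.06 to 5.65 in CR hearts and from 5.17 to 5.86 in control hearts, also with 0 past the test.

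**Figure D3:**
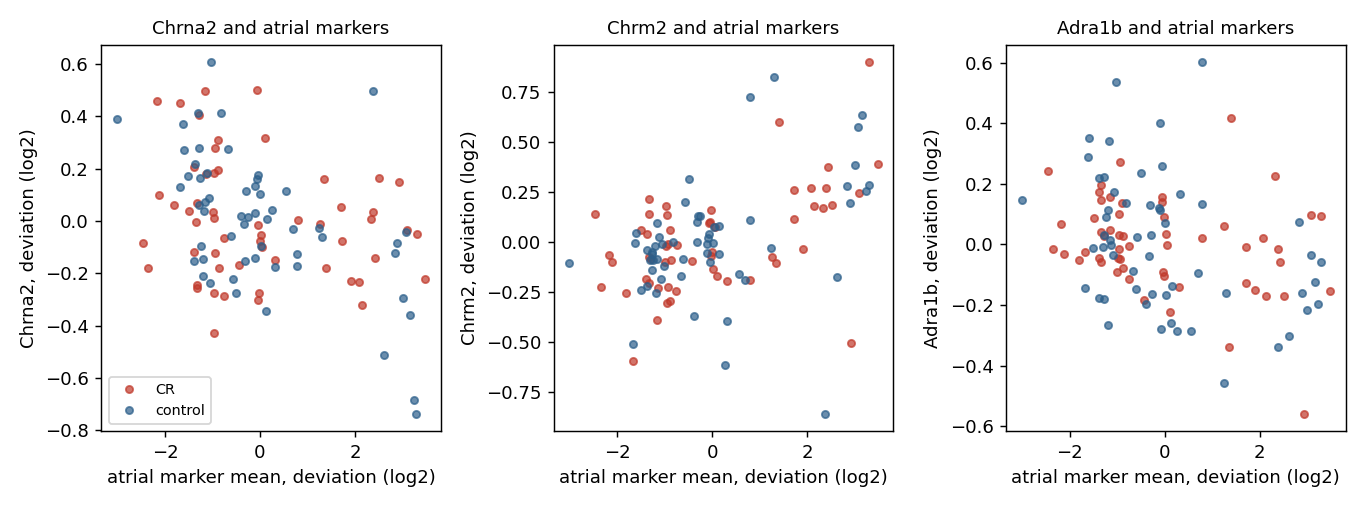
Each heart's deviation from its group mean in log2 signal of Chrna2, Chrm2 or Adra1b (vertical axes) against its deviation in the mean log2 signal of 7 atrial cardiomyocyte markers (horizontal axes), CR hearts in red and control hearts in blue (all hearts used). Chrna2 runs downward and Chrm2 upward with atrial marker signal, with slopes of -0.06 and 0.08 on the atrial marker mean alone.

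Of the 16 nicotinic receptor subunits on the array, Chrna2 was the only one past the test across strains. The other subunits had mean log2 signals of 3.29 to 5.48. These lay within the range of the olfactory receptor probe sets (1.66 to 7.30), as did Chrna2 at 4.97. The median effect of the 16 was -0.03, against 0.00 over all genes tested. Over all genes tested, 7.69% rose and 4.34% fell across strains. Of 10 measured genes that help nicotinic receptors to assemble or cluster, 2 rose and 0 fell. They were Tmem35a, a chaperone of neuronal nicotinic receptors, with a mean log2 signal of 5.35 in CR hearts and 5.14 in control hearts (difference 0.21, adjusted p = 0.000840, limma), and Rapsn, which clusters the receptor at the neuromuscular junction, with 6.45 in CR hearts and 6.34 in control hearts (difference 0.11, adjusted p = 0.0459, limma).

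Chrm2, the M2 receptor gene, was bright and did not pass the test between diets in any strain. Across strains the difference was 0.03 (SE 0.05, adjusted p = 0.757, limma), with a 95% interval of -0.07 to 0.14, which leaves out a fall as large as that of Chrna2. Strain differences ran from -0.07 in B6C3F1/J to 0.15 in C3H/HeJ, with 22 of 55 CR hearts under their control median. The interaction had an adjusted p of 0.974 (limma). All CR and control ranges overlapped.

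The SD of Chrm2 between mice ran from 0.12 to 0.41 over the CR groups and from 0.07 to 0.54 over the control groups. Differences in spread were not tested. In 129S1/SvImJ its lowest, median and highest log2 signals were 10.64, 10.83 and 10.97 in CR hearts, against 10.70, 10.80 and 10.88 in control hearts, the tightest of the groups. In C57BL6/J they were 10.11, 10.66 and 10.82 in CR hearts, against 9.92, 10.46 and 11.36 in control hearts, the widest. 129S1/SvImJ was also the strain with the lowest atrial marker means, 6.64 in CR hearts and 6.57 in control hearts. CBA/J control hearts had an atrial marker mean of 6.99 and a Chrm2 SD of 0.36. A relation between atrial marker level and the spread of Chrm2 was not tested. In CBA/J the signals were 10.12, 10.27 and 11.33 in CR hearts, against 9.49, 10.46 and 10.66 in control hearts, and 1 control heart there, replicate 1, lay at 9.49, below the others at 10.33 to 10.66.

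In the other strains Chrm2 varied moderately. B6C3F1/J had 9.96, 10.56 and 11.15 in CR hearts, against 10.25, 10.60 and 10.90 in control hearts. Balbc/J had 10.54, 10.88 and 11.32 in CR hearts, against 10.75, 10.90 and 11.35 in control hearts. C3H/HeJ had 10.75, 10.92 and 11.38 in CR hearts, against 10.60, 10.76 and 11.43 in control hearts. DBA/2J had 10.46, 10.70 and 10.89 in CR hearts (n = 7), against 10.53, 10.62 and 11.34 in control hearts. None of these pairs of groups was separated.

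Chrm2 differed between strains. The strain test gave an adjusted p of 0.00196 among CR hearts and 0.00184 among control hearts (moderated F tests, limma). Of all genes, 59.6% passed it among CR hearts and 60.7% among control hearts. With all 112 arrays the control call of Chrm2 was lost (adjusted p = 0.433, limma). The array added there was a CR heart, so the control means did not change. It entered the spread shared by all groups, and the SE of the Chrm2 diet effect across strains was 0.10, against 0.05 without it. From high to low, the control means were 10.97 ± 0.22 in Balbc/J, 10.85 ± 0.29 in C3H/HeJ, 10.80 ± 0.07 in 129S1/SvImJ, 10.70 ± 0.27 in DBA/2J, 10.62 ± 0.20 in B6C3F1/J, 10.53 ± 0.54 in C57BL6/J and 10.34 ± 0.36 in CBA/J (SD, n = 8). Over all genes 17.9% of pairs passed. No neighbours in the order of Chrm2 passed, and 4 of 21 pairs passed by limma. Of those, 3 set CBA/J below another strain: Balbc/J (0.62 higher, adjusted p = 0.000609), C3H/HeJ (0.51 higher, adjusted p = 0.00622) and 129S1/SvImJ (0.45 higher, adjusted p = 0.0174). The remaining pair was Balbc/J over C57BL6/J (0.44, adjusted p = 0.0217). The departure of hybrid B6C3F1/J control hearts from the mean of both parent strains did not pass for Chrm2 (-0.07, adjusted p = 0.790, limma) or Chrna2 (0.14, adjusted p = 0.50, limma), in a contrast where 9.96% of genes were called.

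Chrm2 was higher where the atrial marker mean was higher, with a slope of 0.14 log2 units per log2 unit within groups in the joint fit (SE 0.03, adjusted p = 0.00195, limma), the opposite sign to Chrna2. The slope was 0.08 with the atrial marker mean alone (adjusted p = 1.48e-05) and 0.22 with all 112 arrays (adjusted p = 0.0171). Its slope on white adipocyte markers in the joint fit was -0.13 (adjusted p = 0.132, limma). With both marker means in the fit, the strain differences of Chrm2 among control hearts had an adjusted p of 0.000414 (limma). The deviations of Chrm2 and Chrna2 from their group means correlated at r = -0.39 over all hearts used, which share 1 normalization and the spread in atrial marker signal.

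The other muscarinic receptor genes Chrm1, Chrm3, Chrm4 and Chrm5 had mean log2 signals of 4.44 to 6.01, within the range of the olfactory receptor probe sets. Of the 5 muscarinic genes, 0 passed the test between diets (effects -0.04 to 0.03). The Chrm2 promoter from the RefSeq table (GRCm38.p6) is shown because the strain test of Chrm2 passed on both diets. That test passed for 59.6% of all genes among CR hearts and 60.7% among control hearts. The window covers 250 bases before the start to 50 after it, with matches to the GC box GGGCGG on either strand in capitals.
Chrm2, chr6:36387834-36388133, plus strand: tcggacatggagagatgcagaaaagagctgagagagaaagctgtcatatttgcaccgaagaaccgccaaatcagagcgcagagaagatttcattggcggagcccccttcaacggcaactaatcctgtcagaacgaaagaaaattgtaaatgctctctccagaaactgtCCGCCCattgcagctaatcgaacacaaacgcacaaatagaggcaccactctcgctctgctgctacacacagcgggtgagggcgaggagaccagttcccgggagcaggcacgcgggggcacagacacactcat
It held 1 GC box, a motif present in 35.7% of the 32851 promoters of that table, and was 52.7% G and C, equal to the median promoter.

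Adra1b, the alpha-1B receptor gene, fell in the CR hearts of 2 strains and did not pass the test in the other strains. Across strains the difference was -0.13 (SE 0.04, 95% interval -0.20 to -0.05), a 1.09-fold fall with an adjusted p of 0.0175 (limma). That average rested on 129S1/SvImJ and B6C3F1/J: without the first it was -0.08 (adjusted p = 0.285, limma) and without the second -0.07 (adjusted p = 0.346, limma), neither past the threshold. Endothelial markers, all 6 measured, were also lowest in CR relative to control hearts in these strains, with a mean difference of -0.31 in 129S1/SvImJ and -0.37 in B6C3F1/J, against -0.15 to 0.12 in the others, and cardiomyocyte markers differed by -0.09 in 129S1/SvImJ and -0.32 in B6C3F1/J. Their part in the fall of Adra1b was not tested. The Adra1b differences in single strains were negative in 4 of 7, and 36 of 55 CR hearts lay under their strain's control median.

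In 129S1/SvImJ the lowest, median and highest log2 signals of Adra1b were 6.28, 6.52 and 6.66 in CR hearts, against 6.63, 6.88 and 7.31 in control hearts. The groups were nearly separate, with 6 of 8 CR hearts below every control heart and 6 of 8 control hearts above every CR heart. The difference was -0.41 (SE 0.09, 1.33-fold, adjusted p = 0.0106, limma within the strain), and it passed with any single heart of the strain left out (16 refits, adjusted p at most 0.0243). In B6C3F1/J the signals were 6.03, 6.35 and 6.78 in CR hearts, against 6.65, 6.84 and 7.19 in control hearts. There 7 of 8 CR hearts lay below every control heart, and replicate 1, at 6.78, was the heart that overlapped. The difference was -0.48 (SE 0.11, 1.40-fold, adjusted p = 0.0369, limma within the strain), but the call was lost in 12 of 16 refits that left out a single heart, with an adjusted p of up to 0.0979. The size of the difference stayed between -0.54 and -0.44 in those refits.

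The remaining strains showed little. C57BL6/J had Adra1b signals of 5.95, 6.56 and 6.73 in CR hearts, against 6.20, 6.65 and 7.26 in control hearts, a difference of -0.15 (adjusted p = 0.729, limma), and C57BL6/J CR replicate 4 was the low heart at 5.95. C3H/HeJ had 6.31, 6.48 and 6.68 in CR hearts, against 6.16, 6.39 and 6.77 in control hearts, a difference of 0.06. Balbc/J had 6.19, 6.36 and 6.52 in CR hearts, against 6.02, 6.34 and 6.53 in control hearts, also a difference of 0.06. In both of these strains the CR hearts lay inside the control range. CBA/J had 6.31, 6.39 and 6.49 in CR hearts, against 6.04, 6.40 and 6.61 in control hearts, and DBA/2J had 6.17, 6.26 and 6.61 in CR hearts, against 6.04, 6.29 and 6.88 in control hearts. The CR groups of these strains again overlapped their controls throughout, with adjusted p-values of 0.926 in Balbc/J, 0.937 in C3H/HeJ, 0.946 in CBA/J and 1.00 in DBA/2J (limma).

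Adra2c, an alpha-2 receptor gene and the one other alpha receptor gene measured, had an across-strain difference of -0.05 that did not pass (adjusted p = 0.471, limma). Its mean log2 signal of 4.47 lay below the 95th percentile of the olfactory receptor probe sets.

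Whether the strains differed in this response was tested directly. The strain by diet interaction of Adra1b had an adjusted p of 0.0311 (moderated F test, limma), against 0.712% of genes called, and it ranked 93 among the 19938 genes. The call was narrow: the adjusted p was 0.0642 without B6C3F1/J control replicate 1, 0.0579 without B6C3F1/J control replicate 5 and 0.0617 without B6C3F1/J CR replicate 7. It was also lost with all 112 arrays (0.0752), after another quantile normalization (0.0735) and after centring on array medians (0.0587). None of the 21 differences between pairs of strain effects passed over genes and pairs, the nearest being B6C3F1/J against Balbc/J (-0.55, adjusted p = 0.0939, limma).

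The strain differences of Adra1b were themselves present in control hearts and not detected in CR hearts. Among CR hearts the group means spanned 0.17 log2 units, from 6.34 to 6.51, with an adjusted p of 0.517 for strain (moderated F test, limma). Among control hearts they spanned 0.61, from 6.31 to 6.91, with an adjusted p of 3.95e-09. The strain test passed for 59.6% of all genes among CR hearts and 60.7% among control hearts. From high to low, the control means were 6.91 ± 0.25 in 129S1/SvImJ, 6.85 ± 0.19 in B6C3F1/J, 6.65 ± 0.33 in C57BL6/J, 6.42 ± 0.22 in C3H/HeJ, 6.37 ± 0.18 in CBA/J, 6.34 ± 0.25 in DBA/2J and 6.31 ± 0.20 in Balbc/J (SD, n = 8). No neighbours in that order passed, but 11 of the 21 pairs did, by limma over genes and pairs, where 17.9% of pairs passed over all genes. 129S1/SvImJ and B6C3F1/J each exceeded the 4 lowest strains (differences of 0.43 to 0.61), and C57BL6/J exceeded CBA/J (0.28, adjusted p = 0.0421), DBA/2J (0.32, adjusted p = 0.0197) and Balbc/J, where Balbc/J minus C57BL6/J was -0.35 (adjusted p = 0.00880). The difference between C57BL6/J and C3H/HeJ, the parents of the hybrid, did not pass over genes and pairs (C3H/HeJ minus C57BL6/J -0.23, SE 0.10, adjusted p = 0.105, limma).

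The hybrid control hearts had more Adra1b signal than the mean of both parents, by 0.31 (SE 0.09, adjusted p = 0.0127, limma). With the atrial and adipocyte marker means in the fit this was 0.22 and no longer passed (adjusted p = 0.107). B6C3F1/J control hearts had an atrial marker mean of 7.53 and a white adipocyte marker mean of 5.98, while C57BL6/J control hearts had the highest means of both among the 14 groups (7.88 for white adipocyte markers). Over all groups Adra1b had no called slope on atrial markers in the fit with both marker means (0.01, adjusted p = 0.877, limma), and its slope on adipocyte markers was -0.10 (adjusted p = 0.118). With atrial markers alone the slope was -0.04 (adjusted p = 0.00416). Within 129S1/SvImJ the CR difference with both marker means in the fit was -0.24 (adjusted p = 0.256, limma) and within B6C3F1/J -0.42 (adjusted p = 0.0908), while the interaction in the fit over all strains kept an adjusted p of 0.00861.

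Adra1b has a pair of annotated starts in the RefSeq table (GRCm38.p6). Both are shown, since its strain test passed in control hearts and the array's signal does not tell which start was used. Capitals mark the GC box GGGCGG on either strand.
Adra1b upstream start, chr11:43901188-43901487, minus strand: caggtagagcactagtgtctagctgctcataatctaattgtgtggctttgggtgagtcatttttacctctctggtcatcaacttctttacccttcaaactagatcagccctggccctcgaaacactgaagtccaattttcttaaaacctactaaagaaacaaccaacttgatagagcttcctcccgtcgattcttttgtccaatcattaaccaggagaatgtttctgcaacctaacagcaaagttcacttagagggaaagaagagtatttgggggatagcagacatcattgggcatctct
Adra1b downstream start, chr11:43836440-43836739, minus strand: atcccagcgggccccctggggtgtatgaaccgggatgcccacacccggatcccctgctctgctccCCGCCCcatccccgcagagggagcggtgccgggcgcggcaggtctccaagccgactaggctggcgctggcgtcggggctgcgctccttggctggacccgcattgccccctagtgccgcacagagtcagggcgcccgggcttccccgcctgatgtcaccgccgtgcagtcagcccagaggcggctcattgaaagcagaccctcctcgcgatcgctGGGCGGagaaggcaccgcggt
The window at the upstream start was 42.3% G and C with 3 CG dinucleotides and no GC box, and the window at the downstream start was 71.3% G and C with 28 CG dinucleotides and 2 GC boxes. The motifs TATAAA (in 13.6% of all promoters), TGACG, the core of the cyclic AMP response element (20.8%), CACGTG, an E-box (7.15%), and AGAACA, a glucocorticoid receptor half-site (19.0%), were searched on both strands and were in none of the windows printed for Chrm2 and Adra1b. The windows come from the reference genome and not from the strains studied.

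The genes around these receptors changed in both directions. Coverage of the adrenergic side was partial: 0 of 3 listed beta receptor genes and 2 of 6 listed alpha receptor genes were measured. Gnas, Grk2 and Prkaca, listed among G protein subunits, receptor kinases and protein kinase A genes, were not measured either. Over the 14 lists of cholinergic and adrenergic signalling with a measured gene, 135 genes were measured. Across strains 9 rose (6.67%, against 7.69% of all genes) and 11 fell (8.15%, against 4.34% of all genes). The median effect was -0.03, against 0.00 over all genes tested. Chrna2 and Adra1b are among those that fell, and the lists were written with earlier results of these data known. No list was tested, and counts in single lists below stand beside these shares over all genes. In the list of acetylcholine supply and breakdown, Bche, which encodes the breakdown enzyme butyrylcholinesterase, rose to 7.67 in CR hearts, against 7.36 in control hearts (difference 0.29, adjusted p = 2.31e-05, limma). It was higher in CR hearts in 7 of 7 strains and was the one gene of 7 in its list past the test. Ddc, the decarboxylase that makes dopamine from L-DOPA, rose to 5.12 in CR hearts, against 4.87 in control hearts (difference 0.24, adjusted p = 0.000144, limma), likewise in 7 of 7 strains and alone among 9 genes of catecholamine supply and breakdown. The signal of Ddc was low, within the range of the olfactory receptor probe sets.

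**Figure D4:**
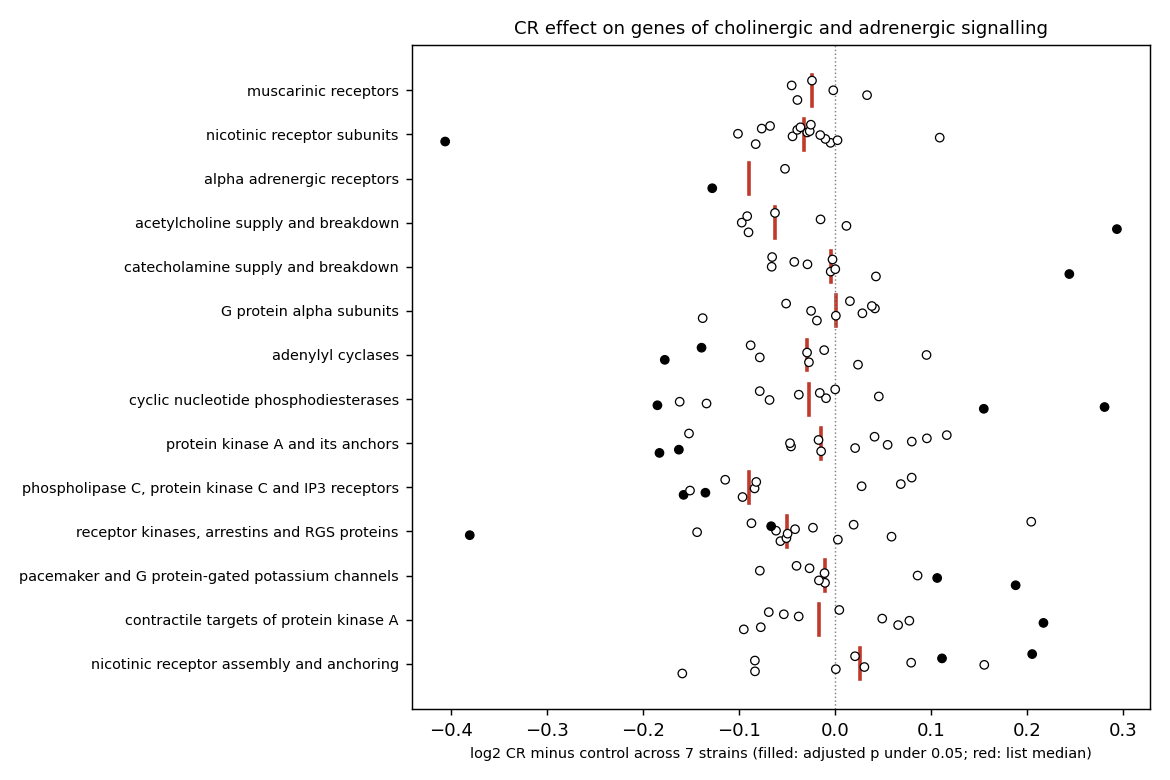
Difference in log2 signal, CR minus control over 7 strains (horizontal axis), of each measured gene in 14 lists of cholinergic and adrenergic signalling. Filled circles passed an adjusted p of 0.05 in limma and red bars are list medians. Chrna2 (-0.41) and the receptor kinase gene Grk5 (-0.38) lie furthest to the left and Bche (0.29) and Pde1c (0.28) furthest to the right.

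Among genes that switch receptors off, Grk5, a kinase that phosphorylates active G protein-coupled receptors, fell to 7.79 in CR hearts, against 8.17 in control hearts. The difference of -0.38 (SE 0.05, 1.30-fold, adjusted p = 6.00e-08, limma) was negative in 6 of 7 strains. Rgs3, a GTPase-activating protein of the RGS family, fell by a small amount (-0.07, adjusted p = 0.0480, limma), and the other 12 measured members of this list of kinases, arrestins and RGS proteins did not pass. None of the 9 measured G protein alpha subunits passed, with effects of -0.14 to 0.04.

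On the cyclic AMP branch, 2 of 9 adenylyl cyclases fell and 0 rose: Adcy8 (-0.14, adjusted p = 0.00469, limma), whose mean log2 signal was 3.75 in CR hearts and 3.89 in control hearts, within the range of the olfactory receptor probe sets, and Adcy3 (-0.18, adjusted p = 0.0364, limma). Of 12 phosphodiesterases, 2 rose and 1 fell. Pde1c, a calcium- and calmodulin-activated enzyme, rose to 7.66 in CR hearts, against 7.38 in control hearts (0.28, adjusted p = 1.83e-09, limma, in 7 of 7 strains), and its relative Pde1a rose by 0.16 (adjusted p = 0.0292, limma). Pde2a, which is stimulated by cyclic GMP, fell by 0.18 (adjusted p = 0.0438, limma). Endothelial cells also express Pde2a, and endothelial markers moved the same way, with 4 of 6 lower in CR hearts past the test and array means of 7.56 to 8.99 in CR hearts and 7.50 to 9.17 in control hearts. Their part in the change of Pde2a was not tested. Of 13 genes of protein kinase A and its anchors, Akap13 (-0.16, adjusted p = 0.00755, limma) and Akap1, an anchor at mitochondria (-0.18, adjusted p = 0.0142, limma), fell and 0 rose.

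On the phospholipase C branch, to which Adra1b couples, 2 of 10 measured genes fell and 0 rose. They were Plcb1, a phospholipase C beta activated by Gq (-0.13, adjusted p = 0.00960, limma), and Itpr3, an IP3-gated calcium channel (-0.16, adjusted p = 0.000367, limma), both lower in CR hearts in 7 of 7 strains. The median effect of this list was -0.09. Among ion channels, Hcn2, a pacemaker channel gene, rose by 0.19 (adjusted p = 0.0240, limma) and Kcnj12, an inward rectifier that is not gated by G proteins, by 0.11 (adjusted p = 0.0436, limma), out of 9 measured. The G protein-gated channels that the M2 receptor opens, Kcnj3 (effect -0.01, adjusted p = 0.973) and Kcnj5 (effect -0.08, adjusted p = 0.564), did not pass. Of 10 targets of protein kinase A, 1 rose, Kcnq1, a potassium channel rather than a contractile protein (0.22, adjusted p = 0.00358, limma).

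The genes most like each receptor were found by Pearson correlation, as a description without a test. In deviations from group means over all hearts used, Chrna2 was most like Abhd1 (r = 0.59), Rnase1, a secreted ribonuclease (r = 0.54), and Acot1, a cytosolic acyl-CoA thioesterase (r = 0.54). All 3 also fell in CR hearts across strains (Abhd1 -0.51, Rnase1 -0.71, Acot1 -0.56, with adjusted p-values of 3.99e-11, 2.20e-11 and 6.09e-09 by limma). Chrm2 was most like Epha4, an ephrin receptor (r = 0.91), Carns1, carnosine synthase (r = 0.85), and Syde2 (r = 0.85), none of which passed between diets. Adra1b was most like Itga7, a laminin-binding integrin of muscle (r = 0.71), Hhatl (r = 0.70) and Arhgef10l (r = 0.70), and these did not pass between diets either. Hearts in these correlations share 1 normalization and the spread in atrial marker signal.

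Over the 14 group means the closest genes were others. For Chrna2 they were Ggt6 (r = 0.89), Fam83g (r = 0.85) and A430093F15Rik (r = 0.84), each lower in CR hearts past the test, by 0.12 to 0.14 on the log2 scale. The mean log2 signals of Fam83g (4.51) and A430093F15Rik (4.29) lay below the 95th percentile of the olfactory receptor probe sets. For Chrm2 the closest genes were Rbm6, Htt and Srsf6 (r = 0.93 for each), with effects of diet between -0.01 and 0.03. For Adra1b they were Fitm2, a protein of lipid droplet formation (r = 0.89), Slc25a20, the mitochondrial carnitine-acylcarnitine carrier (r = 0.88), and Ephx2, soluble epoxide hydrolase (r = 0.87). Fitm2 (-0.16, adjusted p = 0.00692, limma) and Slc25a20 (-0.15, adjusted p = 0.00190, limma) also fell in CR hearts, and Ephx2 did not pass (-0.11, adjusted p = 0.0678, limma). The group means combine strain and diet differences.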

How the data were processed

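The authors deposited log2 signals per probe set, made in Affymetrix Expression Console by gene-level RMA-Sketch (background correction, quantile normalization, median polish). Neither software version nor genome build was given in the sources used here. The median log2 signal of an array ran from 5.31 to 5.57. Of 35556 probe sets, 21789 carried 1 gene symbol. Where a gene had several (999 genes), the one with the highest mean signal was used, which left 19938 genes, with no filter on signal. RNA input was 5 ug per array and mice were on the diets for 14 weeks. Arrays have no read depth, so their number limits the precision. Each array is a separate mouse.

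One mean per group of strain and diet was fitted over the 55 CR and 56 control arrays with limma 3.58.1 in R 4.3.3. Contrasts gave the CR effect averaged over strains, the strain by diet interaction, strain differences and the hybrid departure. For effects within a strain, the fit held its own arrays and no others. Tests were 2-sided with Benjamini-Hochberg adjustment over all genes (also over 21 pairs for pairs of strains) and a threshold of 0.05. The fits were tested on simulated data. The methods of the study likewise used 7 CR hearts of DBA/2J after removing an outlying array, whose replicate number they do not give. Summaries and correlations were computed in Python 3.11.15 (pandas 2.3.3, numpy 2.4.6), and plots were drawn in matplotlib 3.10.9.

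The receptor genes, pathway lists and marker lists were chosen with earlier results of these data known. Named genes were the receptor genes, up to 4 members of each pathway list past the across-strain threshold by smallest p, and the 3 genes most correlated with each receptor in each of 2 ways. Kcnj3, Kcnj5, Adra2c and the other muscarinic genes were named after their values were seen. Promoters were matched by symbol to RefSeq (GRCm38.p6), where 2 of the 3 measured receptor genes had an entry. Alternatives covered arrays, normalization, centring, a filter on dim genes (40th percentile), probe sets, array weights, the variance model, a replicate block, marker covariates and leaving out strains. Single arrays (39, in turn) and the test of strain differences among CR hearts were added after seeing the data. Replicate numbers are shared between diets in the labels. Of 55 same-numbered pairs, 28 had deviations correlated above 0.1 (median 0.11, range -0.44 to 0.67). Differently numbered pairs were not compared, so these values cannot show whether the numbers mark pairs or batches. The main fits did not take numbers as pairs, and a fit with the number as a block was an alternative.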

Additional observations from a re-analysis of the deposited data

Results flagged for a closer look

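Within groups of 7 or 8 hearts, 5 single hearts stood apart for a receptor gene by Dixon's test, which flags about 1 in 20 groups by chance; 42 groups were tested. Chrna2 was low in B6C3F1/J control replicate 4, at 4.50, against 5.14 to 5.65 in the other control hearts of that strain. Chrm2 was low in C57BL6/J CR replicate 4, at 10.11, against 10.53 to 10.82 in the other CR hearts. Chrm2 was also low in CBA/J control replicate 1, at 9.49, against 10.33 to 10.66, and high in DBA/2J control replicate 3, at 11.34, against 10.53 to 10.73. Adra1b was low in C57BL6/J CR replicate 4, at 5.95, against 6.45 to 6.73. C57BL6/J CR replicate 4 and CBA/J control replicate 1 were also among the 7 arrays that stood apart over all genes. Without the outlying hearts of each gene, the across-strain effects of CR were -0.42 for Chrna2, 0.04 for Chrm2 and -0.12 for Adra1b (adjusted p = 1.22e-11, 0.664 and 0.0263, limma).

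The effect of CR on Adra1b passed the test of a difference between strains (interaction, adjusted p = 0.0311, limma), a call lost with all 112 arrays (0.0752), after another quantile normalization (0.0735), after centring (0.0587) and without any of 3 single B6C3F1/J hearts (up to 0.0642), with falls of 0.41 in 129S1/SvImJ and 0.48 in B6C3F1/J on the log2 scale and differences of -0.15 to 0.06 in the other 5 strains.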

How the results depend on the processing

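The fall of Chrna2 across strains kept its direction and its call in all 57 alternatives (-0.45 to -0.37); the filter on dim genes removed it and gives no value. Chrm2 was not called between diets across strains in any of 58 (-0.06 to 0.05). The across-strain fall of Adra1b kept its call in 56 of 58 and lost it without strain 129S1/SvImJ (-0.081, adjusted p = 0.285) or without B6C3F1/J (-0.068, adjusted p = 0.346). Its interaction had an adjusted p of 0.0752 with all 112 arrays, 0.0735 after another quantile normalization and 0.0587 after centring on array medians, and 0.0101 to 0.0642 with 1 of 39 arrays left out. With all 112 arrays the strain differences in control hearts had an adjusted p of 0.0717 for Chrna2 and 0.433 for Chrm2, and with single arrays left out 0.0112 to 0.0649 for Chrna2. The array added to make 112 was a CR heart, which left the control means unchanged and entered the spread shared by all groups. The slope of Adra1b on atrial markers reversed to -0.0396 (adjusted p = 0.00416) without the adipocyte covariate. The causes were not tested.

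Counts of genes moved more. Genes lower in CR numbered 865, against 519 with all 112 arrays, 2044 with array weights, 1332 without the arrays that stand apart, 373 without 129S1/SvImJ and 500 without B6C3F1/J. Genes higher numbered 1534, against 547 with all 112 arrays, 2436 with array weights and 866 without 129S1/SvImJ. Genes with an interaction numbered 142, against 30, 5207 and 1869 under the first 3 of those settings, 217 with marker covariates and 87 to 653 with 1 array left out.

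With the replicate number as a block, the across-strain effects were -0.41 for Chrna2, 0.03 for Chrm2 and -0.13 for Adra1b (adjusted p = 3.33e-10, 0.761 and 0.00822, limma), and the block changed no call of a receptor gene. It moved the count of genes called in B6C3F1/J to 465, against 181 without it. The methods' t-test reached an unadjusted p under 0.01 for Chrna2 in 5 strains and for Adra1b in 2, all lower in CR.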
